A study of Mus musculus with 4 samples.

Results

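The Hox genes were followed in RNA sequencing libraries of mouse neural progenitor cells (NPCs) grown on a soft or a stiffer culture matrix, with and without knockdown of the transcription factor Srf. Members were taken by symbol, as every listed gene named Hoxa, Hoxb, Hoxc or Hoxd with a number, which gave 39 genes of 21862. The 4 libraries were NPC control at 0.5 kPa, NPC control at 12 kPa, NPC shSrf at 0.5 kPa and NPC shSrf at 12 kPa, 1 library for each condition. All 4 came from N31 cells, a mouse NPC line differentiated in vitro from induced pluripotent stem cells, which carries doxycycline-inducible Oct4, Klf4, c-Myc and Sox2 transgenes. The shSrf cells also carried a short hairpin RNA against Srf delivered by a retrovirus, and the vector of the control cells was not given in the sources used here. All cells were kept without EGF and bFGF on matrix over type I collagen-coated dishes, and kPa states how stiff that matrix was. With 1 library per condition no difference could be set against a replicate spread, so no test was made and each comparison describes these libraries. Anything else that differed between the control and shSrf cultures cannot be told apart from the knockdown.

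Hox genes encode homeodomain transcription factors that give cells their position along the head to tail axis. They lie in 4 clusters and fall into 13 paralog groups, and genes at the 3′ end of a cluster (low paralog numbers) are switched on earlier and further forward in the embryo than genes at the 5′ end. In the nervous system the paralog groups mark levels of the hindbrain and spinal cord, while the forebrain and midbrain form without Hox expression. Retinoic acid and Cdx factors are known to switch Hox genes on, Polycomb complexes to keep them silent, and Pbx and Meis proteins of the TALE family to bind DNA together with Hox proteins.

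Expression was read as FPKM, fragments scaled to transcript length and library depth, so levels can be set side by side between genes of different length. From the steps between the lowest FPKM values the depth was estimated at 29100000, 24100000, 45000000 and 62300000 mapped reads in control 0.5 kPa, control 12 kPa, shSrf 0.5 kPa and shSrf 12 kPa, the order used for every set of 4 values below. The shSrf libraries were thus the deeper ones, and the number of Hox genes listed at 0 moved with depth, at 8, 13, 7 and 4 of 39. Srf, the targeted gene, stood at 34.4, 35.6, 16.2 and 17.4 FPKM, lower in both shSrf libraries. The progenitor label was met only in part: of 11 neural progenitor markers, 4 exceeded 2 FPKM in all libraries, and Sox1, Sox3, Hes5 and Olig2 were below 0.2 in all of them. Mesenchymal markers, 9 in number, summed to 3374, 3085, 3268 and 3340.2 FPKM against 78.3, 66.5, 57.2 and 60.7 FPKM for the progenitor markers. Among the lists that moved with shSrf, 6 neuronal markers summed to 54.9, 59.0, 122 and 117 FPKM although Dcx and Rbfox3 stayed below 0.2, and 5 astrocyte markers to 34.0, 44.3, 17.2 and 22.5 FPKM with Aqp4 below 0.2. The neuronal sum followed Stmn2 (19.1, 18.7, 64.6 and 61.3 FPKM) and Map2 (29.9, 35.1, 51.7 and 50.0 FPKM), while Syt1 was at 2.66, 2.61, 2.50 and 2.03 FPKM and Tubb3 at 3.34, 2.63, 3.39 and 3.93 FPKM. The astrocyte sum followed Slc1a3 (27.7, 36.7, 9.99 and 13.2 FPKM), while Aldh1l1 was at 5.68, 7.09, 6.77 and 8.96 FPKM. The 6 pluripotency markers summed to 3.94, 4.41, 3.81 and 4.51 FPKM, but did not all stay level. Pou5f1, which encodes Oct4, was higher with shSrf at 1.16, 0.861, 2.03 and 2.26 FPKM (endogenous and transgenic transcripts cannot be told apart). Zfp42 at 0.823, 1.40, 0.381 and 0.572 FPKM and Esrrb at 0.902, 0.833, 0.322 and 0.154 FPKM were lower. Nanog was at 1.05, 1.32, 1.05 and 1.52 FPKM. The 4 progenitor markers above 2 FPKM in all libraries did not move in 1 direction. Sox2 at 4.29, 5.49, 19.1 and 20.4 FPKM and Pax6 at 2.62, 3.46, 6.49 and 6.78 FPKM were higher with shSrf. Endogenous and transgenic Sox2 cannot be told apart. The intermediate filament gene Nes at 51.6, 36.1, 16.4 and 15.5 FPKM and Notch1 at 18.4, 20.6, 10.8 and 14 FPKM were lower. The part of these shifts in the Hox values below was not tested.

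Hox transcripts were scarce in control NPCs and more abundant with shSrf. Summed over the 39 genes, the FPKM was 23.3, 24.3, 67.3 and 68.5, so that the shSrf total was 2.89-fold the control total at 0.5 kPa and 2.82-fold at 12 kPa. The number of Hox genes above 2 FPKM was 4 and 3 in the control libraries and 9 and 10 in the shSrf libraries. Of all 21862 genes, 10855, 10871, 10933 and 11001 were above 2 FPKM. In these bulk samples more cells that express a Hox gene and more RNA per cell cannot be told apart. Even the highest of them was modest: Hoxa3 led both control libraries and ranked at percentiles 56.4 and 57.4 of all 21862 genes, and Hoxd8 led both shSrf libraries at percentiles 65.1 and 64.1. The Hoxa cluster held the largest sum in every library, and Hoxd stood well above Hoxb with shSrf but close to it in the controls. Hoxa genes summed to 16.3, 16.3, 39.9 and 40.9 FPKM, Hoxd genes to 3.61, 4.24, 21.0 and 19.8 FPKM and Hoxb genes to 3.11, 3.49, 6.09 and 7.14 FPKM, whereas the 9 Hoxc genes together reached only 0.341, 0.246, 0.347 and 0.575 FPKM.

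**Figure D1:**
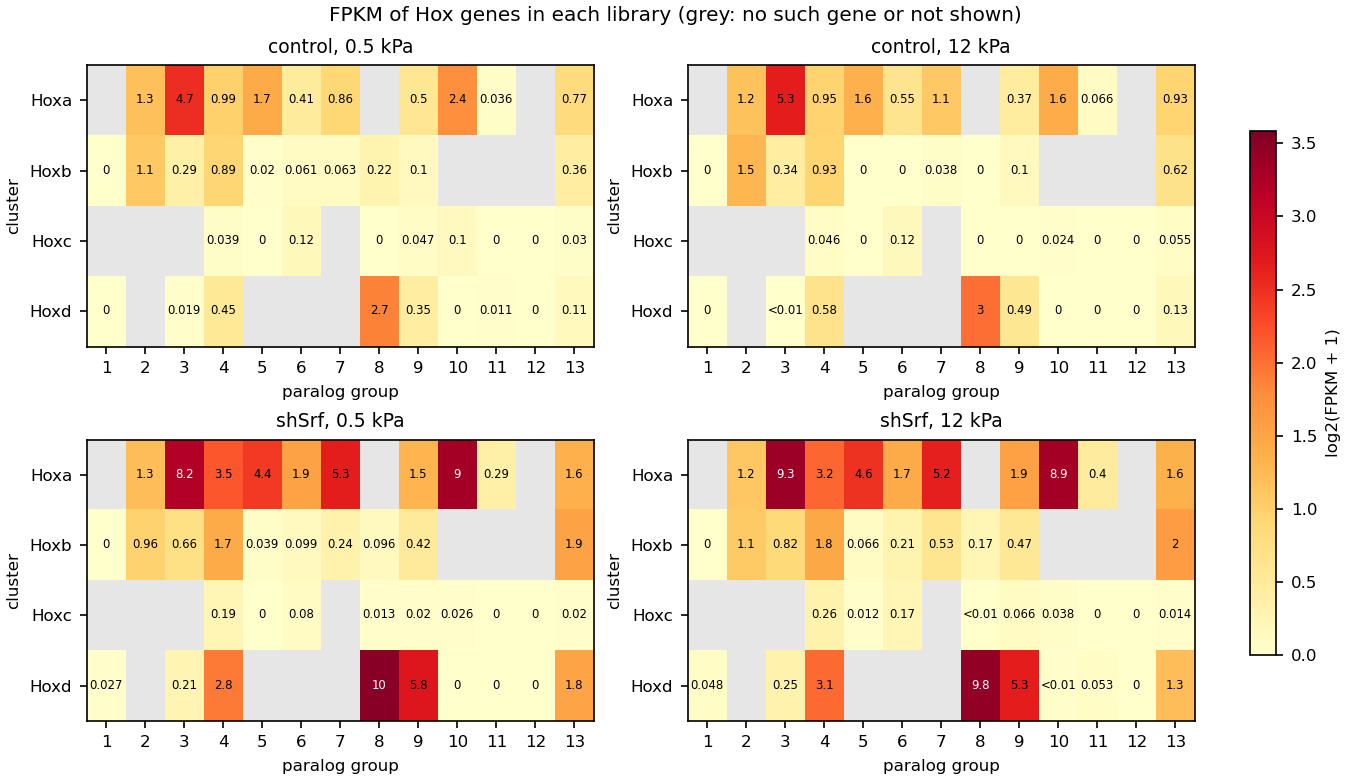
FPKM of the Hox genes in each library, with clusters as lines and paralog groups 1 to 13 as columns; the number in a cell is the FPKM, the colour log2(FPKM + 1), and grey marks paralogs that do not exist or are not shown. The Hoxa line and the Hoxd8 and Hoxd9 cells are darker in the 2 shSrf panels, and the Hoxc line stays pale in all 4.

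The first question was which Hox genes differed between control and shSrf NPCs. The filter the study used, FPKM above 2 in all 4 libraries, kept 10489 genes but only 3 Hox genes, Hoxa3 and Hoxd8 among them. All 3 were higher with shSrf by more than the study's threshold of 1.1-fold at 0.5 kPa, where 37.4% of the 10489 genes were higher and 35.7% lower, and again at 12 kPa, where 37.6% were higher and 35.9% lower. Because most Hox genes sat under that filter in the controls, a wider one was added after the values were seen, FPKM above 0.2 in both control libraries, which kept 12960 genes and 17 Hox genes. Of these 17, 12 were more than 2-fold higher with shSrf at 0.5 kPa, where 5.08% of the 12960 genes were that much higher and 5.65% that much lower. At 12 kPa 11 of the 17 were more than 2-fold higher, against 5.71% of genes higher and 4.65% lower. None of the 17 was more than 2-fold lower at either stiffness. The 11 genes past 2-fold at 12 kPa were all past it at 0.5 kPa (Hoxa4, Hoxa5, Hoxa6, Hoxa7, Hoxa9, Hoxa10, Hoxb3, Hoxb13, Hoxd4, Hoxd8 and Hoxd9), where 3.44% of the 12960 genes were 2-fold higher and 3.51% 2-fold lower at both stiffnesses. The comparisons at 0.5 and 12 kPa shared no library, but both set shSrf cells against control cells. Anything else that differed between those cell populations would enter both, so the comparisons are not independent replicates of the knockdown. The median log2 ratio of the 17 Hox genes was 1.55 at 0.5 kPa and 1.59 at 12 kPa, beside medians of 0.01 and 0.02 over the 12960 genes. With no filter and 1 added to each FPKM, 9 of the 39 Hox genes were more than 2-fold higher at each stiffness, against 1.65% of 21862 genes at 0.5 kPa and 1.76% at 12 kPa. The shares of all genes given here were not matched to the Hox genes for expression level.

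**Figure D2:**
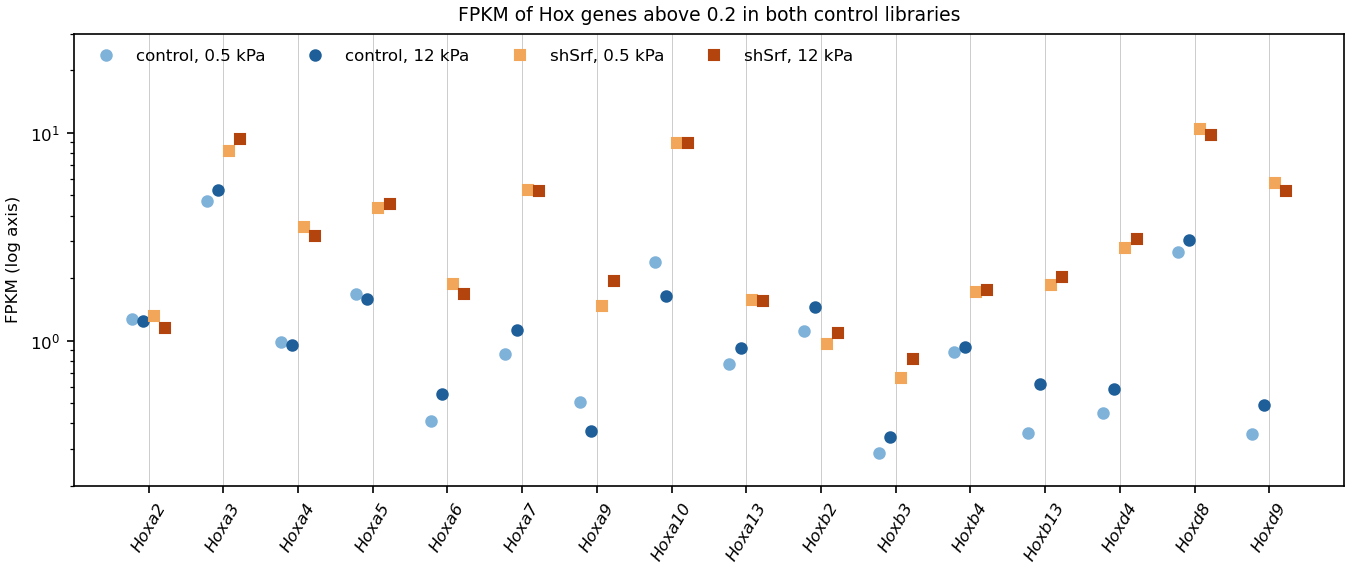
FPKM (log axis) of Hox genes above 0.2 FPKM in both control libraries; circles are the 2 control libraries, squares the 2 shSrf libraries, 1 library per symbol. The squares lie above the circles by the widest gap for Hoxd9, and for Hoxa2 and Hoxb2 they do not lie above them.

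The Hoxa cluster, 11 genes on the minus strand of chromosome 6 (coordinates here and below are from RefSeq, GRCm38.p6), held the largest share of Hox expression. Hoxa2, a selector gene of the second branchial arch, was flat at 1.27, 1.24, 1.31 and 1.15 FPKM, with control and shSrf values overlapping. Hoxa3 (chr6:52169059-52213067), needed for thymus and parathyroid formation, was the most abundant Hox gene on average at 4.70 and 5.32 FPKM in the control libraries and 8.19 and 9.30 FPKM in the shSrf libraries. Both shSrf values of Hoxa3 lay above both control values, by 1.74-fold at 0.5 kPa (95% interval 1.55 to 1.96) and 1.75-fold at 12 kPa (1.56 to 1.96), where these and the following intervals are exact Clopper-Pearson intervals on the split of estimated reads between the libraries and cover counting error only. By RefSeq the long Hoxa3 gene overlaps Hoxa4, Hoxa5 and Hoxa6 on the same strand, so the split of reads among these 4 genes is uncertain.

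The central Hoxa genes separated the cell populations. Hoxa4 (chr6:52189682-52191703) was at 0.986 and 0.952 FPKM in the control libraries and 3.5 and 3.19 FPKM in the shSrf libraries, or 3.55-fold at 0.5 kPa (95% interval 2.53 to 5.11) and 3.35-fold at 12 kPa (2.32 to 5.0). Hoxa5 (chr6:52201754-52204587), a gene of cervical and lung patterning, was at 1.68 and 1.58 FPKM in the control libraries and 4.36 and 4.56 FPKM in the shSrf libraries, from an estimated 82.0, 64.0, 329 and 476 reads. The Hoxa5 ratio was 2.59-fold at 0.5 kPa (95% interval 2.03 to 3.34) and 2.88-fold at 12 kPa (2.21 to 3.8). These 2 neighbors thus kept nearly the same ratio at both stiffnesses. Hoxa6 went from 0.408 and 0.554 FPKM in the controls to 1.88 and 1.67 FPKM, 4.60- and 3.01-fold, although from only 18.2 and 20.5 estimated control reads. Hoxa7 (chr6:52215623-52218573), a gene of the thoracic level, had the largest ratio of the central group at 6.17-fold at 0.5 kPa (95% interval 4.55 to 8.55) and 4.67-fold at 12 kPa (3.47 to 6.31), with 0.863 and 1.12 FPKM in the control libraries and 5.33 and 5.24 FPKM in the shSrf libraries.

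At the 5′ end, Hoxa9 and Hoxa10 belong to the groups that act in the lumbar cord, limb and reproductive tract and are also known from leukemia. Hoxa10 (chr6:52231197-52240854) reached 2.38 and 1.64 FPKM in the control libraries and 8.98 and 8.93 FPKM in the shSrf libraries, the highest mean level after Hoxa3 and Hoxd8. The ratio of Hoxa10 was 3.77-fold at 0.5 kPa (95% interval 3.19 to 4.47) and 5.45-fold at 12 kPa (4.40 to 6.76); the larger ratio at 12 kPa goes with its lower control value there. Hoxa9 was at 0.504, 0.366, 1.47 and 1.93 FPKM, or 2.93-fold at 0.5 kPa and 5.27-fold at 12 kPa. Hoxa11, a limb and uterus gene, was listed at 0.0362, 0.0655, 0.292 and 0.397 FPKM, from an estimated 2.62, 3.93, 32.8 and 61.6 reads, so its control level rested on a handful of reads. Hoxa13, a gene of the distal limb and hindgut, passed 2-fold at 0.5 kPa only, with 0.772 and 0.925 FPKM in the control libraries and 1.57 and 1.55 FPKM in the shSrf libraries and ratios of 2.04-fold at 0.5 kPa (95% interval 1.47 to 2.88) and 1.68-fold at 12 kPa (1.22 to 2.34); the 2 intervals overlap. Each of Hoxa9, Hoxa10, Hoxa11 and Hoxa13 had both shSrf values above both control values.

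Relative to its control level, the Hoxd cluster, on the plus strand of chr2:74668225-74765142, differed most. Its summed FPKM was 5.82-fold higher with shSrf at 0.5 kPa and 4.68-fold at 12 kPa, against 2.45- and 2.51-fold for Hoxa and 1.96- and 2.05-fold for Hoxb. Hoxd8 (chr2:74704615-74707933) was the highest Hox gene of both shSrf libraries, with 2.67 and 3.04 FPKM in the control libraries and 10.4 and 9.80 FPKM in the shSrf libraries. The Hoxd8 ratio was 3.90-fold at 0.5 kPa (95% interval 3.34 to 4.57) and 3.23-fold at 12 kPa (2.77 to 3.8). The next gene toward the 5′ end, Hoxd9 (chr2:74697763-74700208), a gene of the lumbar cord and limb, went from 0.355 and 0.492 FPKM in the controls to 5.76 and 5.27 FPKM. Its ratio, 16.2-fold at 0.5 kPa (95% interval 10.6 to 27.4) and 10.7-fold at 12 kPa (7.0 to 16.5), was the largest among the 17 genes above 0.2 FPKM in both controls, and rested on an estimated 20.5, 23.6, 514 and 651 reads. Hoxd4 (chr2:74721978-74729160), a hindbrain and cervical gene, showed 0.449 and 0.584 FPKM in the control libraries and 2.79 and 3.10 FPKM in the shSrf libraries, or 6.21-fold at 0.5 kPa (95% interval 4.26 to 9.25) and 5.31-fold at 12 kPa (3.76 to 7.87).

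The remaining Hoxd genes included the most 5′ one, Hoxd13 (chr2:74668225-74671603), a gene of the digits. Hoxd13 was at 0.105 and 0.127 FPKM in the control libraries and 1.83 and 1.31 FPKM in the shSrf libraries, from 7.0, 7.0, 188 and 187 reads; its FPKM steps gave whole read numbers. The ratio of 17.4-fold at 0.5 kPa (95% interval 8.26 to 43.8) and 10.3-fold at 12 kPa (4.92 to 26.1) therefore carries wide intervals, although both lie far above 1. Between Hoxd9 and Hoxd13 the cluster stayed near silent: Hoxd12 was listed at 0 in all 4 libraries, Hoxd10 only at 0.00993 FPKM in shSrf 12 kPa, and Hoxd11 at 0.0108, 0, 0 and 0.0529 FPKM. At the 3′ end Hoxd1 was at 0, 0, 0.0267 and 0.0483 FPKM and Hoxd3, which overlaps Hoxd4, at 0.0190 FPKM in control 0.5 kPa, with a value near 0 in control 12 kPa, and at 0.211 and 0.251 FPKM in shSrf. Expression with shSrf in this cluster was thus discontinuous, with Hoxd4, Hoxd8, Hoxd9 and Hoxd13 above 1 FPKM and the genes between Hoxd9 and Hoxd13 at or below 0.0529 FPKM.

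**Figure D3:**
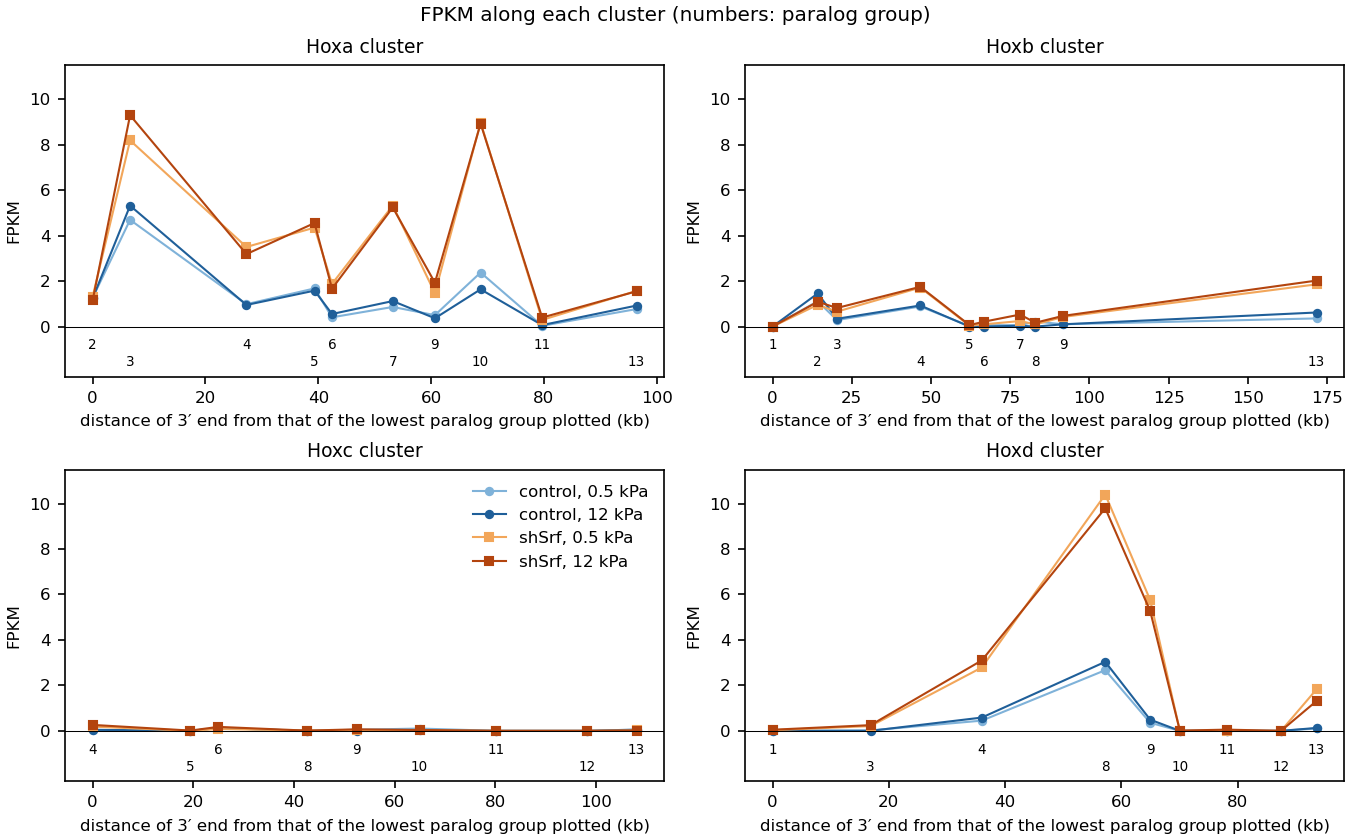
FPKM of Hox genes along each cluster, against the distance of the 3′ end of a gene from that of the plotted gene with the lowest paralog number (kb); blue circles are the control libraries, orange squares the shSrf libraries, and the numbers under the points are paralog groups. The shSrf lines leave the control lines from group 3 onward in Hoxa, peak at groups 8 and 9 in Hoxd, and lie on the baseline between groups 9 and 13 of Hoxd and throughout Hoxc.

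Srf binds DNA at a sequence called the CArG box, so the 250 bases upstream of the Hox start sites were searched for it. RefSeq promoter windows (GRCm38.p6) were held for 22 of the 39 genes, 24 windows in all, and the genes without one included Hoxa4, Hoxb2, Hoxb3, Hoxb5, Hoxb6, Hoxb7, Hoxb9, Hoxb13, Hoxc5, Hoxc6, Hoxc8, Hoxc9, Hoxc10, Hoxc11, Hoxc12 and Hoxc13. A CArG box on either strand was found in 0 of the 24 windows and in 1.47% of all 32851 windows. This says only that these letters are not in the windows. The windows of Hoxd9 with the largest ratio, Hoxd8 with the highest shSrf level, Hoxd13 from near silent to expressed and Hoxa2 with overlapping values are printed to show this upstream sequence beside the expression values. Each runs 5′ to 3′ in the sense of its gene, and capitals mark CCAAT, the box bound by NF-Y, and TATAAA, the TATA box, or their reverse complements. The windows lie at chr2:74697513-74697762 (plus strand), chr2:74704365-74704614 (plus), chr2:74667975-74668224 (plus) and chr6:52164832-52165081 (minus).
Hoxd9: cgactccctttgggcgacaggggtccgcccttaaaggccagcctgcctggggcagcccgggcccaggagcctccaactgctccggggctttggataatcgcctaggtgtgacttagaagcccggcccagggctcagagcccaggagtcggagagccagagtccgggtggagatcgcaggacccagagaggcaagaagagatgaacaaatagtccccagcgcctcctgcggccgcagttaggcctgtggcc
Hoxd8: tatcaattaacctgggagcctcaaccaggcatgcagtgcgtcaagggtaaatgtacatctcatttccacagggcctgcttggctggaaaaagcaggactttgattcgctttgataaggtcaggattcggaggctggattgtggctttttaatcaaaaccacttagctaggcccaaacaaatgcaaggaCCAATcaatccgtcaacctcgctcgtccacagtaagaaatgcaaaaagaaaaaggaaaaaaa
Hoxd13: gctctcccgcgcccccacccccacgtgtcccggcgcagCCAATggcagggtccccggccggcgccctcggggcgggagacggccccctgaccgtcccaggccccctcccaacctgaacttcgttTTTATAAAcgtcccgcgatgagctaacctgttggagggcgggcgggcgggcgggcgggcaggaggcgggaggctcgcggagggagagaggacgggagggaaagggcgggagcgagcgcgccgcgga
Hoxa2: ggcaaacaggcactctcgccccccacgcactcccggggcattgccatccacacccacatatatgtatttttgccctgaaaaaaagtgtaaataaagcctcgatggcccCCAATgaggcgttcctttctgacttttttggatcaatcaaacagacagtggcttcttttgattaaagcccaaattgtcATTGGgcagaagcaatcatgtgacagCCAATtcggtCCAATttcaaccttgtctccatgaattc
Hoxd9 held neither box, Hoxd8 a CCAAT box, Hoxd13 a CCAAT box and an overlapping TATAAA pair, and Hoxa2, whose expression did not separate the populations, 4 CCAAT boxes. Across the 24 Hox windows CCAAT was present in 58.3% against 33.8% of all windows, TATAAA in 16.7% against 12.4%, and GGGCGG, the Sp1 box, in 41.7% against 32.7%. AGGTCA, the core of retinoic acid receptor sites, occurred in 25.0% of Hox windows (Hoxb4, Hoxc4, Hoxd3, Hoxd4, Hoxd8 and Hoxd10) against 14%. TGATNNAT, read by Pbx and Hox dimers, was in 16.7% against 7.68%, and TGACAG, read by Meis, in 8.33% against 15.9%. All motifs were searched on both strands. The Hox windows were richer in G and C, at a median of 58.6% against 52.4%, and held a median of 12.5 CpG pairs against 6.

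Hoxb genes were lower and less uniform. The cluster lies on the plus strand of chr11:96194316-96368254 and spreads over 174 kb, with Hoxb13 far from the rest. Hoxb13 (chr11:96194316-96196610), best known from prostate and tail bud, was at 0.360 and 0.620 FPKM in the control libraries and 1.86 and 2.02 FPKM in the shSrf libraries, from 21.0, 30, 168 and 253 reads, or 5.17-fold at 0.5 kPa (95% interval 3.27 to 8.57) and 3.27-fold at 12 kPa (2.23 to 4.94). Hoxb4, known for its role in blood stem cells, was at 0.885, 0.928, 1.72 and 1.75 FPKM and remained just under 2-fold at 1.94 and 1.88. Hoxb3, which overlaps Hoxb4, was at 0.287, 0.344, 0.657 and 0.818 FPKM, or 2.29- and 2.38-fold with intervals of 1.24 to 4.28 and 1.39 to 4.68. Hoxb2, a gene of the hindbrain rhombomeres, went the other way at 1.11, 1.46, 0.959 and 1.09 FPKM. Its ratio of 0.861-fold at 0.5 kPa (95% interval 0.657 to 1.12) and 0.750-fold at 12 kPa (0.592 to 0.953) was below 1 at both stiffnesses, with an interval that spans 1 at 0.5 kPa.

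Toward the middle of the cluster the values rested on few reads. Hoxb7 was at 0.0630, 0.0380, 0.244 and 0.530 FPKM and Hoxb9 at 0.101, 0.10, 0.425 and 0.471 FPKM, from an estimated 6.66, 3.33, 40.0 and 119.9 and 7.0, 5.74, 45.4 and 69.7 reads. Both shSrf values of each lay above its control values. Hoxb5 and Hoxb6 were listed at 0 in control 12 kPa and did not exceed 0.215 FPKM anywhere. Hoxb8 did not separate the populations, at 0.223, 0, 0.0956 and 0.171 FPKM. Hoxb1, an early gene of the hindbrain, was listed at 0 in every library.

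In the Hoxc cluster (chr15:102921131-103036856, plus strand), whose genes act in cord and vertebrae from the neck to the tail, no gene exceeded 0.261 FPKM in any library. Hoxc4 held that value and was at 0.0385, 0.0465, 0.187 and 0.261 FPKM, from 2.15, 2.15, 16.1 and 31.2 estimated reads. Hoxc11 and Hoxc12 were listed at 0 throughout. For Hoxc11 a count of 0 still allows up to 3 reads, or 0.0566, 0.0683, 0.0366 and 0.0264 FPKM, by counting error alone. Over all clusters 35 of the 39 Hox genes had a value above 0 in at least 1 library, and 8 never exceeded 3 estimated reads.

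Read by paralog group, the ratio was below 1 in group 2, and from group 4 on it was at least 2.59 at 0.5 kPa and 2.84 at 12 kPa in every group except group 12. Summed over clusters, group 2 stood at 2.38, 2.69, 2.27 and 2.24 FPKM and group 3 at 5.0, 5.67, 9.06 and 10.4, with shSrf to control ratios of 0.954 and 1.81 at 0.5 kPa and 0.833 and 1.83 at 12 kPa. Group 4 stood at 2.36, 2.51, 8.20 and 8.30 FPKM, a ratio of 3.47 at 0.5 kPa and 3.31 at 12 kPa. The largest ratio among the groups above 0.2 FPKM in both controls was that of group 9, at 1.01, 0.959, 7.67 and 7.74 FPKM, or 7.62- and 8.07-fold. Group 12 was listed at 0 throughout. Taking groups 1 to 3 as anterior, 4 to 8 as central and 9 to 13 as posterior, the summed FPKM with shSrf was 1.43- and 1.44-fold the control sum for the 8 anterior genes, 3.63- and 3.43-fold for the 15 central genes and 4.64- and 5.0-fold for the 16 posterior genes. The posterior sum rested mainly on Hoxa10 and Hoxd9, at 8.98 and 5.76 of 22.3 FPKM in shSrf 0.5 kPa. By any amount, 8 of the 16 posterior genes were higher with shSrf at 0.5 kPa and 4 lower. At 12 kPa 12 were higher and 1 lower, and the matching shares of all genes are not given here. In the controls the anterior genes made the largest sum, at 10.1 and 10.9 FPKM. With shSrf the central genes did, at 30.7 and 30.7 FPKM. Within Hoxa the anterior, central and posterior sums were 1.45-, 3.83- and 3.34-fold at 0.5 kPa, and 1.48-, 3.48- and 4.28-fold at 12 kPa. Of the summed Hox difference at 0.5 kPa, Hoxa supplied 53.7% and Hoxd 39.5%, and at 12 kPa 55.7% and 35.3%.

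The second question was whether the stiffer matrix altered Hox expression. The sum over all Hox genes was 1.04-fold at 12 kPa relative to 0.5 kPa in control cells and 1.02-fold in shSrf cells. Under the study's filter, 2 of the 3 Hox genes (Hoxa3 and Hoxd8) were more than 1.1-fold higher at 12 kPa in control cells and none was lower, where 17.9% of genes were higher and 16.9% lower. In shSrf cells 1 of the 3 (Hoxa3) was higher and none lower, against 17.6% and 13% of genes. Under the wider filter 10 of the 17 Hox genes were higher at 12 kPa in control cells and 2 were lower, where 22% of the 12960 genes were higher and 20.4% lower. In shSrf cells 5 were higher and 2 lower, against 22.9% and 15.5% of genes. These shares were not matched for expression level, and most of the 17 Hox genes lay under the study's filter. Most of the Hox differences between stiffnesses lay within 2 counting standard errors: 1 of the 17 exceeded them in control cells and 2 of the 17 in shSrf cells. For the knockdown 14 of 17 exceeded them at 0.5 kPa and 15 of 17 at 12 kPa, where the 15 include Hoxb2, which was lower. The share of all genes past 2 counting standard errors was not computed, so these counts have no background. For stiffness, the 1 gene past them in control cells was Hoxa10, lower at 12 kPa with a log2 ratio of -0.54 (counting SE 0.19). In shSrf cells the log2 ratio of Hoxa10 was -0.01 (0.06). The pair in shSrf cells was Hoxa3, at 0.18 (0.06), and Hoxa9, at 0.39 (0.13). Hoxa3 had the same log2 ratio of 0.18 in control cells (0.10). The range over the 17 genes was -0.54 to 0.79 in control cells and -0.19 to 0.39 in the deeper shSrf libraries. The medians, 0.19 and -0.01, stand beside 0.00 and 0.01 over the 12960 genes.

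**Figure D4:**
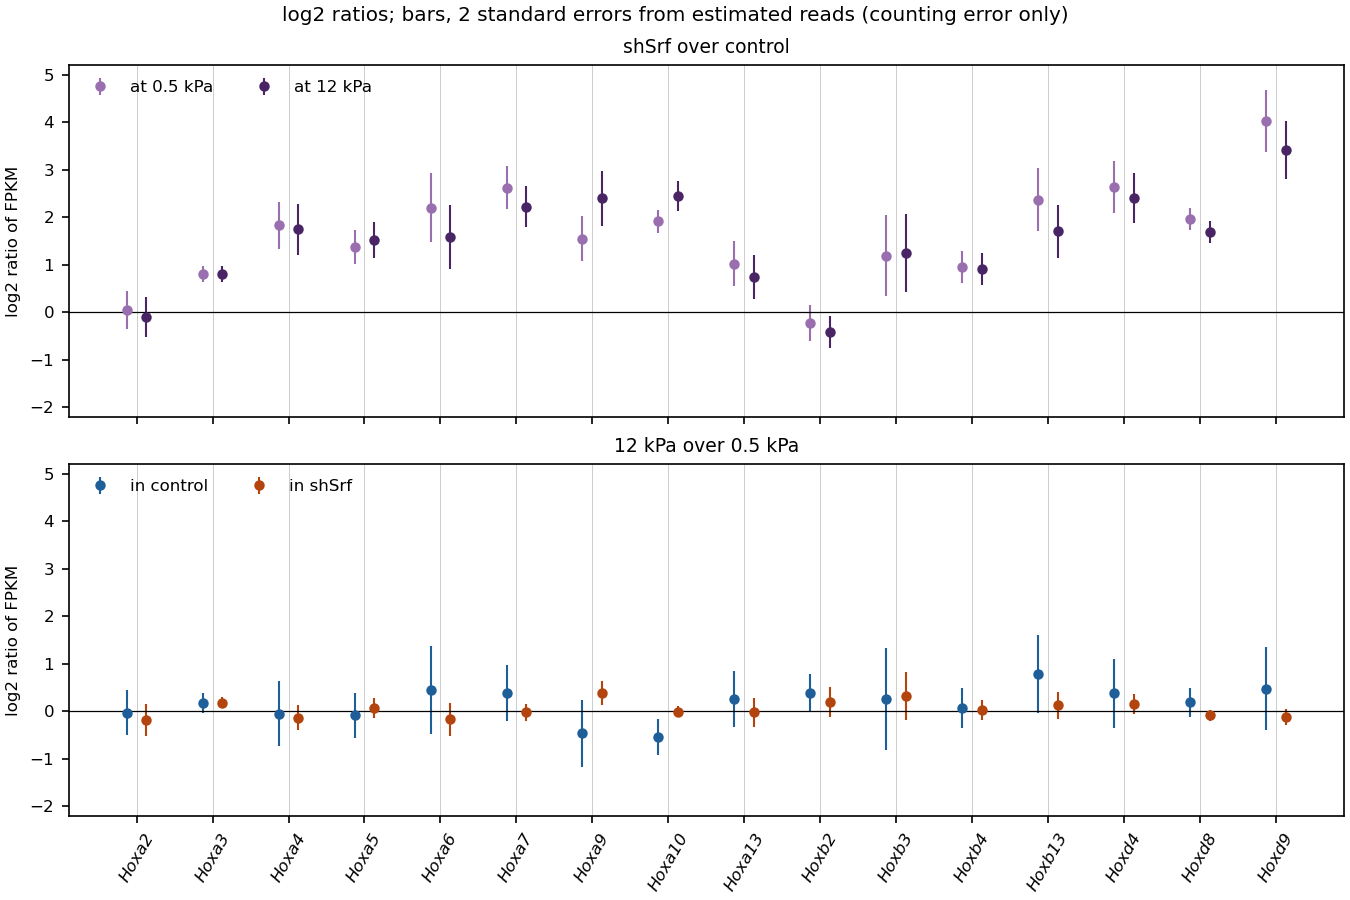
log2 ratios of FPKM for Hox genes above 0.2 FPKM in both controls; upper panel shSrf over control at each stiffness, lower panel 12 over 0.5 kPa in each cell population, with bars of 2 standard errors from estimated reads (counting error only, 1 library per condition). In the upper panel most points lie between 1 and 4 with bars clear of 0, and in the lower panel most bars cross 0.

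Genes that act with the Hox proteins or on their clusters were counted in lists, under the study's filter and 1.1-fold threshold, with the shares of all genes given above (37.4% higher and 35.7% lower at 0.5 kPa, 37.6% and 35.9% at 12 kPa). All 9 TALE cofactors were expressed, 7 higher and 1 lower with shSrf at 0.5 kPa and 5 higher and 1 lower at 12 kPa. Meis2, which binds DNA together with Hox proteins, was at 74.2, 63.0, 151 and 166 FPKM, 2.04- and 2.63-fold higher, and Pbx2 at 44.0, 47.8, 64.5 and 68.7 FPKM. Meis2 and Pbx2 were present in the controls at levels above those of any Hox gene. This did not hold for every TALE cofactor, as Pbx4 was at 3.16 and 2.94 FPKM in the controls, below Hoxa3 at 4.70 and 5.32 FPKM. Of 28 Polycomb genes, 27 passed the filter, 12 higher and 4 lower at 0.5 kPa and 10 higher and 5 lower at 12 kPa, and none passed 2-fold. Rbbp7 was the most abundant of them at 307, 319.6, 363 and 335 FPKM, with Rbbp4 at 124, 123, 128 and 134 FPKM and Phc2 at 100.5, 91.0, 107 and 99.1 FPKM. The Polycomb genes did not move in 1 direction. At 0.5 and 12 kPa Suz12 was at 0.747- and 0.676-fold, Eed at 0.815- and 0.823-fold and Ezh2 at 0.909- and 0.773-fold. Pcgf2 was higher at 1.83- and 1.84-fold. Whether these levels bear on the Hox values was not tested. The 13 genes listed as Trithorax, a group that counters Polycomb silencing, also included Ctcf and Dot1l. Of these 13, 7 were higher and 3 lower at 0.5 kPa and 6 higher and 2 lower at 12 kPa, with none past 2-fold. Psip1 among them was at 129, 135, 104 and 90.6 FPKM, Ash2l at 98.8, 98.2, 112 and 105 FPKM and Dpy30 at 60.7, 59.2, 71.0 and 68.1 FPKM. The median log2 ratios at 0.5 and 12 kPa were 0.23 and 0.17 for the TALE list, 0.11 and 0.12 for the Polycomb list and 0.18 and 0.10 for the Trithorax list, beside 0.01 and 0.01 over the 10489 genes.

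Of 19 genes known to act upstream of Hox expression, 9 passed the filter, 4 higher and 4 lower at 0.5 kPa and 4 higher and 2 lower at 12 kPa. Cyp26b1, which degrades retinoic acid, was the 1 gene of the 9 past 2-fold at both stiffnesses, at 3.85, 3.33, 16.0 and 19.1 FPKM, 4.16- and 5.74-fold higher. Aldh1a2, which makes retinoic acid, did not pass the filter because of its control values and was at 1.98, 1.61, 4.52 and 7.43 FPKM, or 2.28- and 4.62-fold. By the mean over the 4 libraries the receptors Rara and Rarg were the most abundant of the list with Gmnn, at 43.4, 43.2, 47.2 and 48.2 FPKM and 77.8, 75.2, 69.2 and 76.8 FPKM, and Gmnn, a DNA replication licensing inhibitor, at 69.0, 59.9, 56.3 and 56.1 FPKM. Among further genes outside the filter, Fgf8, a posterior signal, was low at 0.120, 0.0969, 0.310 and 0.591 FPKM. Gbx2, a factor of the anterior hindbrain, was at 0.236, 0.406, 0.0218 and 0.0629 FPKM. Wnt3a was at 0, 0, 0.00867 and 0.00627 FPKM, near or below the level of 3 reads. Cdx1, Cdx2 and Cdx4, the caudal factors, did not exceed 0.0267 FPKM in any library.

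Genes flanking the clusters were counted in the same way. Of 14 listed neighbors found in the files, 10 passed the filter, 3 higher and 2 lower at 0.5 kPa and 3 higher and 3 lower at 12 kPa, with none past 2-fold and median log2 ratios of 0.05 and -0.06. Hnrnpa1 and Mtx2, beyond the Hoxc and Hoxd clusters, were at 434, 438, 470.1 and 438 FPKM and 57.9, 55.0, 63.1 and 62.2 FPKM, and Tax1bp1, near Hoxa, at 61.5, 61.4, 57.7 and 54.5 FPKM. Evx1 and Evx2, the homeobox genes at the 5′ edge of Hoxa and Hoxd, were listed at 0 in all 4 libraries. Genes of other brain levels gave a mixed picture. Of 13 forebrain and midbrain genes 5 passed the filter, 3 higher and 2 lower at both stiffnesses. En1, a midbrain and anterior hindbrain factor, was at 3.17, 3.27, 9.74 and 10.3 FPKM, 3.07- and 3.15-fold higher. Dlx1 and Dlx2 of the ventral forebrain were lower, at 22.5, 21.5, 14.2 and 13.4 FPKM and 35.7, 32.5, 18.4 and 18.8 FPKM. Nkx2-1 was at 0.0168, 0.0406, 0 and 0 FPKM. Of 12 hindbrain and spinal cord genes only Pax3 passed, higher at both stiffnesses at 6.35, 7.04, 9.27 and 10.4 FPKM, while Irx3 was at 1.79, 1.45, 0.507 and 0.886 FPKM and Irx5 at 1.5, 1.66, 1.38 and 1.71 FPKM. The controls and shSrf cells thus held Dlx1, En1 and Hox transcripts in the same libraries, which bulk RNA cannot assign to the same or to different cells.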

How the data were processed

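RNA from 4 cultures of N31 cells was sequenced single-end, 1 library per condition, after a stranded mRNA library preparation. According to the submitters' notes and the methods, the authors trimmed reads with cutadapt 1.9.1, mapped them to mm10 with TopHat2 2.1.0 and Bowtie2 2.2.8, kept reads of mapping quality 20 or more, and computed the deposited FPKM per gene with Cufflinks 2.2.1 and GENCODE M14. Whether strand was used in counting is not given in the sources used here, so overlapping and antisense genes may share reads: by RefSeq, 10 Hox genes overlap another Hox gene and 17 a non-coding gene.

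Of 21997 rows per library, 135 rows of 63 repeated symbols were left out. Groups were taken from the labels. Ratios are log2(FPKM/FPKM) without a pseudocount unless stated. Depth was estimated from the steps between low FPKM values (225 of 400 low genes fell on whole reads within 0.05), and reads per Hox gene from the longest GENCODE M1 transcript less 200 nt. This gave whole reads within 0.1 for 9 Hox genes, and standard errors and 95% exact intervals cover counting error only. The steps were tested on simulated data. Python 3.11.15, pandas 2.3.3, scipy 1.17.1 and matplotlib 3.10.9 were used.

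Named were all Hox genes above 2 FPKM in any library, the 3 most abundant genes of each list, any list gene past 2-fold in 1 direction at both stiffnesses, and Srf. Other Hox genes, and a few list and marker genes, were named after their values were seen, and some genes that meet these rules are not reported here. The members and lists were chosen with earlier results of these data known. Of 20 non-coding transcripts of the clusters listed, 0 matched a row, and 5730596B20Rik, which overlaps Hoxa3 and has a row, was not in that list; none was analysed here. Alternatives covered the minimum, pseudocount, scaling, GC content and threshold.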

Additional observations from a re-analysis of the deposited data

Results flagged for a closer look

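With 1 library per condition, no sample could be compared with others of its group. Of the 17 Hox genes above 0.2 FPKM in both controls, 7 had stiffness ratios of opposite sign in control and shSrf cells, and in 2 of them the ratio passed 1.1-fold in both populations. The other 5 were Hoxa5, Hoxa7, Hoxa13, Hoxd8 and Hoxd9, and their ratios lay within 2 counting standard errors in both populations. The share of all genes with opposite signs was not computed, so these counts have no background. For Hoxa6 the log2 ratio of 12 over 0.5 kPa was 0.44 in control cells and -0.17 in shSrf cells, a difference of -0.61 with a counting standard error of 0.50. For Hoxa9 it was -0.46 in control cells and 0.39 in shSrf cells, a difference of 0.85 with a counting standard error of 0.38. Each rests on 1 library per condition, and the difference was not tested in either gene. Control Hoxa6 and Hoxa9 values came from an estimated 18.2 and 44.4 reads at 0.5 kPa and 20.5 and 26.7 reads at 12 kPa.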

How the results depend on the processing

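The number of Hox genes that could be compared depended on the filter: 3 passed an FPKM of 2 in all libraries, 6 an FPKM of 1 and 0 an FPKM of 5, while 39 entered with no minimum and 1 added to each value. With a minimum of 1, 5 Hox genes were higher with shSrf at each stiffness, with median log2 ratios of 1.09 and 1.17 beside 0.80 and 0.81 at the minimum of 2. For stiffness the same minimum gave 1 lower gene in each population, and in control cells the median turned from 0.18 to -0.059. With a minimum of 5, 0 Hox genes were higher in any of the 4 comparisons and no median could be given. A minimum of 2 in either library compared, with 1 added, gave 8 higher genes (median 1.39) at 0.5 kPa, 10 (1.24) at 12 kPa, and 1 lower gene for stiffness in control cells. With no minimum and 1 added, 20 genes were higher and 1 lower with shSrf at 0.5 kPa (median 0.19), and 23 and 1 at 12 kPa (0.28). Of all 21862 genes, 5423 were higher and 4756 lower at 0.5 kPa, and 5542 and 4767 at 12 kPa. For stiffness that setting gave 7 higher and 3 lower genes in control cells (median 0) and 4 and 1 in shSrf cells. Under the wider filter chosen after seeing the data, FPKM above 0.2 in both controls, 15 were higher and 1 lower by more than 1.1-fold with shSrf at each stiffness (medians 1.55 and 1.59). Of the 12960 genes under that filter, 5039 were higher and 4814 lower at 0.5 kPa, and 5133 and 4799 at 12 kPa. For stiffness the wider filter gave 10 higher and 2 lower Hox genes in control cells and 5 and 2 in shSrf cells. Shares of all genes under the other minimums are not given here. At a threshold of 2-fold, 1 of the 3 genes under the study's filter was higher with shSrf at each stiffness. At thresholds of 1.2-, 1.5- and 2-fold, 0 were higher for stiffness in either population. Settings that change the minimum alone compare fewer or more genes by construction. Those that also add 1 change both, and the cause of their shifts was not tested.

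Scaling to the 75th percentile, median centring and centring within GC bins left every count at the minimum of 2 within 1.5 times its value. Under the wider filter, GC centring left 10 Hox genes past 2-fold at each stiffness, beside 12 and 11, with medians of 1.58 and 1.44. This centring covered only the 11763 genes with a GC value. Their share past 2-fold after centring is not given here, so these counts of 10 have no background. Of the 17 genes in each shSrf comparison, adding 1 moved 12 ratios toward 0 by more than their counting error, and no single-gene ratio changed direction past 1.1-fold under scaling, centring or the added 1. An additive fit over cell population and stiffness, which would leave 1 residual degree of freedom, was not made. Depth limits the low genes: 8 Hox genes never exceeded 3 estimated reads.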
